A study of Oryza sativa with 6 samples.

Results

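In rice seedlings, 170 of the 55801 loci counted had values before dusk many times above those before dawn in every library. The set was chosen by a rule on the measured values. A locus belonged to it when its mean level before lights off (PM) was at least 10 counts per 1000000 gene counts of its library (CPM) and its lowest PM value was at least 16 times its highest value before lights on (AM) plus 0.1 CPM. The set includes LUX and ELF3-2, which belong to the evening part of the circadian clock, FKF1, a blue-light receptor, Hd1 and DTH2, regulators of heading date, and ISA1, a starch debranching enzyme. Because the PM and AM values themselves chose the members, their PM over AM differences are given as a description and were not tested.

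The plants were Oryza sativa of the cultivar Nipponbare, without a transgene or treatment other than the light regime. Chu's media was the growth medium, the chambers were held at 28 °C, and light and dark periods lasted 12 h each. The PM group (3 libraries) was harvested 30 min ahead of lights off, and the AM group (3 libraries) 30 min ahead of lights on. The study asked how the genome used for mapping affects expression and splicing results, and the values here come from one set of deposited counts.

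Plants keep time with a circadian clock, a loop of transcription factors that repress one another in turn over the day. In Arabidopsis, MYB factors of the morning such as LHY repress evening genes, and the evening complex of ELF3, ELF4 and LUX in turn represses genes of the day. Day length is read through clock-controlled genes: GI and FKF1 act late in the day, and CONSTANS-like proteins such as rice Hd1 pass the signal on to the florigen genes. With 1 time before dusk and 1 before dawn, samples of this kind show a difference between these times, not the time of the peak.

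Gene counts per library ran from 13 M to 41.7 M in PM and from 22.3 M to 66.7 M in AM. The summed level of 3 leaf genes, RCA, LHCB4 and CRD1, was 1626 to 2634 CPM in PM and 33781 to 42776 CPM in AM. The labels describe whole seedlings but give the organ as panicle. Of 11 floral markers, such as MADS1 and DL, 7 stayed under 1 CPM in every library, and 2 of these 7 had no count. The floral sum was 5.93 to 7.59 CPM in PM and 5.68 to 6.12 CPM in AM. Of 5 root markers, among them LSI1 and NAAT1, 2 had no count, and their sum was 11.8 to 17.2 CPM in PM and 16.3 to 24.0 CPM in AM. No marker of these lists was a member, and the part of the leaf genes' difference in any result was not tested. In bulk samples, fewer cells of a type and less RNA per cell cannot be told apart. The labels do not say whether replicates were separate plants. The p-values below therefore reflect the variation among these libraries alone, and that variation may be technical.

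**Figure D1:**
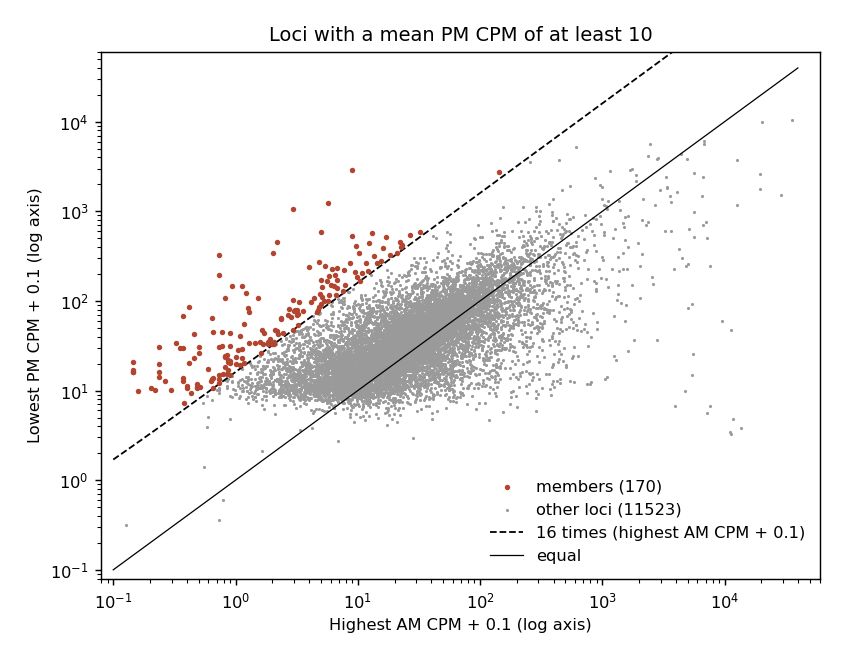
Highest AM CPM (horizontal) against lowest PM CPM (vertical), both plus 0.1 on log axes, for loci with a mean PM level of at least 10 CPM. The 170 members (red) lie on or above the dashed line of the rule, and the 11523 other loci (grey) lie below it.

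A broad difference between the groups lay behind the set. By the edgeR quasi-likelihood test with Benjamini-Hochberg adjustment at 0.05, 5748 of 20548 tested loci were higher in PM (28.0%) and 5745 were lower (28.0%). That split rests on TMM scaling, which assumes that most loci do not differ. With library totals alone it became 11200 higher and 2764 lower, and the median log2 difference over all tested loci moved from -0.01 to 0.84. All 170 members were called higher in PM under both scalings, from which nothing is read, since the same contrast chose them. More than 16-fold higher values with TMM were called at 343 loci (1.67% of those tested). The lowest PM value lay above the highest AM value at 11805 tested loci (57.5%), whereas the rule held for 0.827% of them. The mirrored rule, with PM and AM exchanged, picked 159 loci.

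As a group, the members took up 3.01, 3.36 and 3.10% of the gene counts in PM replicates 1, 2 and 3, against 0.0655, 0.0399 and 0.0691% in AM replicates 1, 2 and 3. The mean share was 3.16% ± 0.182 in PM and 0.0582% ± 0.0159 in AM (SD, n = 3 each). Wilson 95% intervals on the single shares were narrow, for example 3.005 to 3.02% in PM replicate 1 and 0.06442 to 0.06654% in AM replicate 1, and cover counting error only. The 5 members with the highest levels held 32.5% ± 1.37 of the member counts in PM and 20.4% ± 5.71 in AM (SD, n = 3 each).

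Levels of single members covered a wide range. Mean PM levels ran from 11.2 to 3292 CPM with a median of 67.2 CPM, and mean AM levels from 0.015 to 90.8 CPM with a median of 1.35 CPM. In PM, 69 members reached a mean of 100 CPM, 5 reached 1000 CPM and 30 stayed under 20 CPM. Ranked among all 55801 loci by mean PM CPM, the first member stood at place 16, and 50 members were among the first 1000 places. Ranked by mean AM CPM, the first member stood at place 1447. These are levels per locus, not per length, so they do not rank genes by transcript number.

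**Figure D2:**
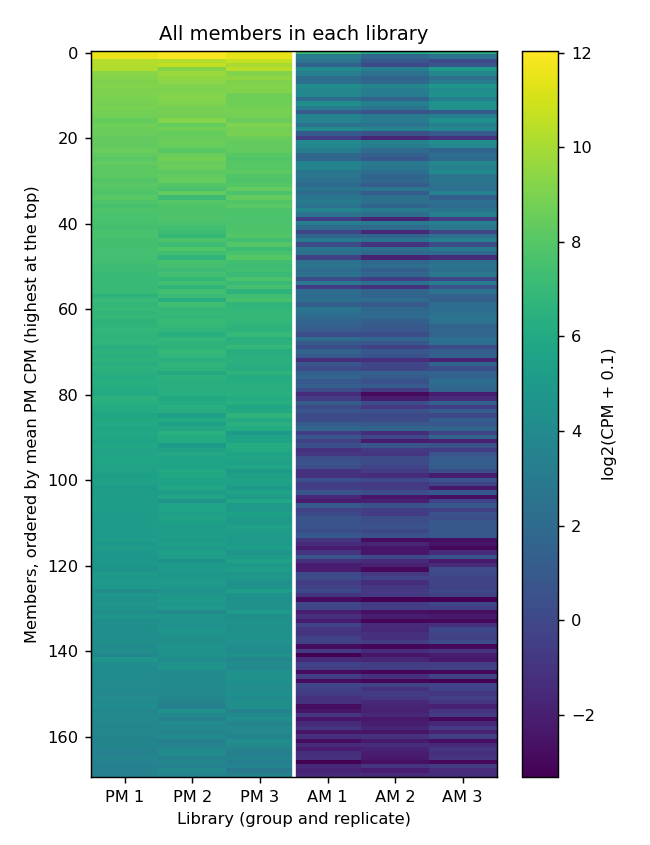
Level of each of the 170 members as log2(CPM + 0.1) in the 3 PM libraries (left) and the 3 AM libraries (right), with members ordered by mean PM CPM from top to bottom. Mean PM levels run from 3292 down to 11.2 CPM, and the AM columns are darker than the PM columns in every row.

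The ratio of the rule, lowest PM CPM over highest AM CPM plus 0.1, ran from 16.03 to 452 with a median of 25.6. It was from 16 to under 32 in 108 members, from 32 to under 64 in 33, from 64 to under 128 in 15 and 128 or more in 14. Its median was 22.0 among the 30 members under 20 CPM, 26.0 among the 71 members from 20 to under 100 CPM and 24.5 among the 69 members from 100 CPM. The highest ratios of these 3 classes were 110, 206 and 452, and the 0.1 CPM in the rule caps the ratio of weak loci. On the fitted scale of edgeR with TMM, the members' log2 difference of PM over AM ran from 3.52 to 10.3 with a median of 4.66, against a median of -0.01 over all tested loci. The top value belongs to LOC_Os01g65130 with 1 AM count, where the fit gives no bound. With library totals alone the members' median was 5.49, against 0.84 over all tested loci.

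The rule sets a ratio and no upper limit on the AM level, and no member had 0 counts in all AM libraries, and 94 of 170 had at least 100 counts summed over them. The summed AM count per member ran from 1 to 9562 with a median of 156, against 718 to 231240 in PM with a median of 5232. In AM, 80 members averaged under 1 CPM and 13 averaged at least 10 CPM. Only 9 members had at most 10 AM counts in all, and 4 of them had 1 to 3. A count of 0 allows up to 0.135, 0.045 and 0.0831 CPM in AM replicates 1, 2 and 3.

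LUX had the largest difference of the clock members. LUX (LOC_Os01g74020, chromosome 1) codes for the DNA-binding protein of the evening complex in Arabidopsis. It had 172, 108 and 256 CPM in PM replicates 1, 2 and 3, against 0.718, 0.180 and 0.305 CPM in AM replicates 1, 2 and 3. The groups lay far apart, with a ratio of 132 by the rule, and PM replicate 2 was the lowest of its group. The log2 difference was 8.17 with an SE of 0.52.

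ELF3-2 (LOC_Os01g38530, chromosome 1) codes for one of the rice ELF3 proteins, the scaffold of that complex. It had 221, 217 and 213 CPM in PM replicates 1, 2 and 3, against 12.1, 7.53 and 5.96 CPM in AM replicates 1, 2 and 3. The PM libraries were almost equal. Their SD of 0.008 on the log2 scale of TMM-normalised CPM was the smallest of any member on that scale. The log2 difference was 3.82 with an SE of 0.28. Its relative ELF3-1 (LOC_Os06g05060), which was no member, had 205, 226 and 194 CPM in PM replicates 1, 2 and 3, against 154, 122 and 129 CPM in AM replicates 1, 2 and 3. Its fitted log2 difference was -0.22 with TMM (edgeR quasi-likelihood test, Benjamini-Hochberg adjusted p = 0.268) and 0.63 with library totals alone (adjusted p = 0.0133), so its direction depends on the scaling. The mean PM level was 217 ± 3.9 CPM for ELF3-2 and 209 ± 16.1 CPM for ELF3-1 (SD, n = 3 each), without correction for length.

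FKF1 (LOC_Os11g34460, chromosome 11) codes for an F-box protein with a blue-light-sensing domain that in Arabidopsis helps to remove repressors of flowering late in the day. FKF1 had 15.0, 10.5 and 18.4 CPM in PM replicates 1, 2 and 3, against 0.0898, 0.105 and 0.0277 CPM in AM replicates 1, 2 and 3. The AM values rest on 2, 7 and 1 counts, and the groups did not overlap, as the rule requires. The log2 difference was 6.60 with an SE of 0.46. Leaving out 1 library at a time gave 6.19 to 7.30, with the highest value without AM replicate 2. The related F-box genes ZTL1 and ZTL2 were no members. ZTL1 averaged 116 ± 6.74 CPM in PM and 98.5 ± 12.3 CPM in AM (SD, n = 3 each), with a log2 difference of -0.61 with TMM (edgeR quasi-likelihood, Benjamini-Hochberg adjusted p = 0.00716) and of 0.24 with library totals alone (adjusted p = 0.277). ZTL2 averaged 209 ± 8.65 CPM in PM and 136 ± 18.7 CPM in AM (SD, n = 3 each), with a log2 difference of -0.23 with TMM (edgeR, adjusted p = 0.258) and of 0.62 with library totals alone (adjusted p = 0.0139). The sign for both ZTL genes thus differs between scalings. That of FKF1 was fixed by the rule, so the 3 genes are not compared in this.

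Of the 13 clock genes listed, all were tested and 3 were members. The call was higher in PM for 6 and lower for 5, against 28.0% of all tested loci in each direction. The 6 include the 3 members, whose direction was fixed by the rule. With library totals alone the split was 8 higher to 3 lower. The median log2 difference of the 13 was -0.22. Among those that were no members, PRR59 averaged 31.1 ± 5.05 CPM in PM and 5.63 ± 1.57 CPM in AM, and PRR1, the rice relative of Arabidopsis TOC1, 30.3 ± 1.49 CPM in PM and 4.64 ± 2.11 CPM in AM (SD, n = 3 each). Their log2 differences were 1.64 and 1.90 (edgeR, Benjamini-Hochberg adjusted p = 0.000262 and 0.000365). LHY, the morning MYB factor, was lowest in PM relative to AM: it averaged 6.82 ± 3.44 CPM in PM and 2984 ± 472 CPM in AM, a log2 difference of -9.65 (edgeR, adjusted p = 2.34e-06). PRR73, a pseudo-response regulator, averaged 60.7 ± 5.11 CPM in PM and 635 ± 131 CPM in AM, a log2 difference of -4.22 (edgeR, adjusted p = 1.56e-06). The 3 members, LUX, FKF1 and ELF3-2, held the largest log2 differences of the clock list in the PM direction. The rule chose them for such differences, so nothing is read from this order.

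**Figure D3:**
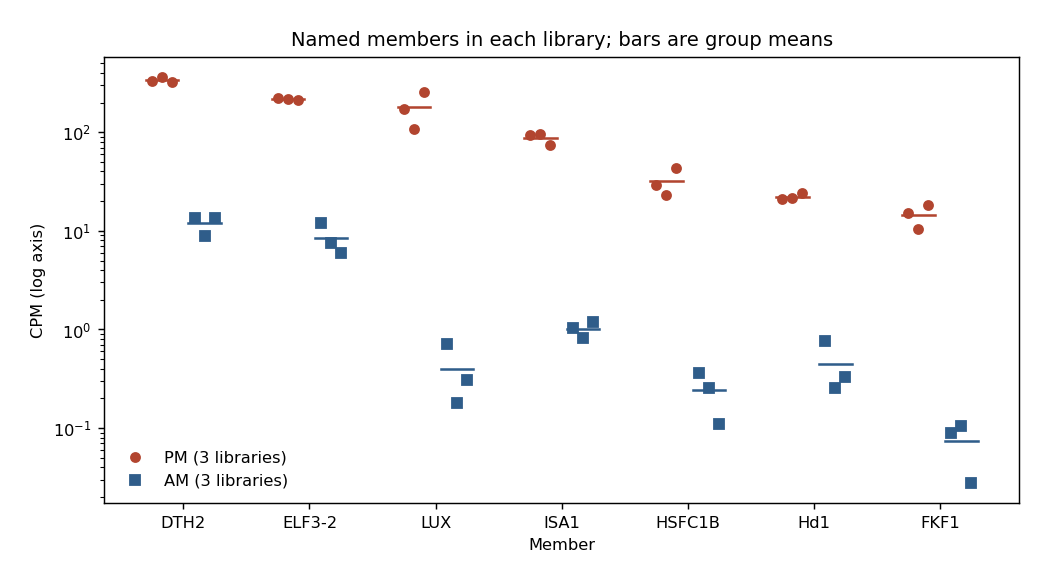
CPM on a log axis of the 7 named members in each library, with PM (red circles) left of AM (blue squares) and group means as bars. The gap is widest for LUX, with 108 to 256 CPM in PM and 0.180 to 0.718 CPM in AM, and narrowest for ELF3-2, with 213 to 221 CPM in PM and 5.96 to 12.1 CPM in AM.

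The heading-date members were both CONSTANS-like genes. DTH2 (LOC_Os02g49230, chromosome 2), which promotes heading in long days, had 327, 359 and 321 CPM in PM replicates 1, 2 and 3, against 13.5, 8.79 and 13.5 CPM in AM replicates 1, 2 and 3. Its PM libraries differed little and lay far above the AM libraries. The log2 difference was 3.99 with an SE of 0.18. Hd1 (LOC_Os06g16370, chromosome 6), the rice counterpart of CONSTANS, promotes flowering in short days and delays it in long days. Hd1 had 20.9, 21.5 and 24.1 CPM in PM replicates 1, 2 and 3, against 0.763, 0.255 and 0.332 CPM in AM replicates 1, 2 and 3. Its AM values rest on 17, 17 and 12 counts, and the log2 difference was 4.91 with an SE of 0.36.

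Of the 20 flowering genes listed 17 were tested, and 2 of them were members. Higher values in PM were called for 4, at 23.5% of those tested against 28.0% of all loci, and lower values for 9. The 4 include the 2 members, whose direction was fixed by the rule. With library totals alone the split was 6 higher and 7 lower. The list's median log2 difference was -0.62. Outside the set, DTH8, a subunit of a CCAAT-binding factor, averaged 5.08 ± 3.03 CPM in PM and 0.479 ± 0.144 CPM in AM, and Ehd3, a PHD-finger protein, 15.3 ± 1.41 CPM in PM and 4.66 ± 0.684 CPM in AM (SD, n = 3 each). Their log2 differences were 2.52 and 0.87 (edgeR, Benjamini-Hochberg adjusted p = 0.00286 and 0.00503), and that of DTH8 was 1.90 without PM replicate 3. The DOF factors DOF12 and RDD1 moved the other way. DOF12 averaged 2.32 ± 0.275 CPM in PM and 93 ± 14.8 CPM in AM, a log2 difference of -6.14, and RDD1 0.589 ± 0.199 CPM in PM and 34.1 ± 2.25 CPM in AM, a log2 difference of -6.65 (edgeR, adjusted p = 7.66e-07 and 1.1e-06). In Arabidopsis, factors of this class are the targets of FKF1.

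**Figure D4:**
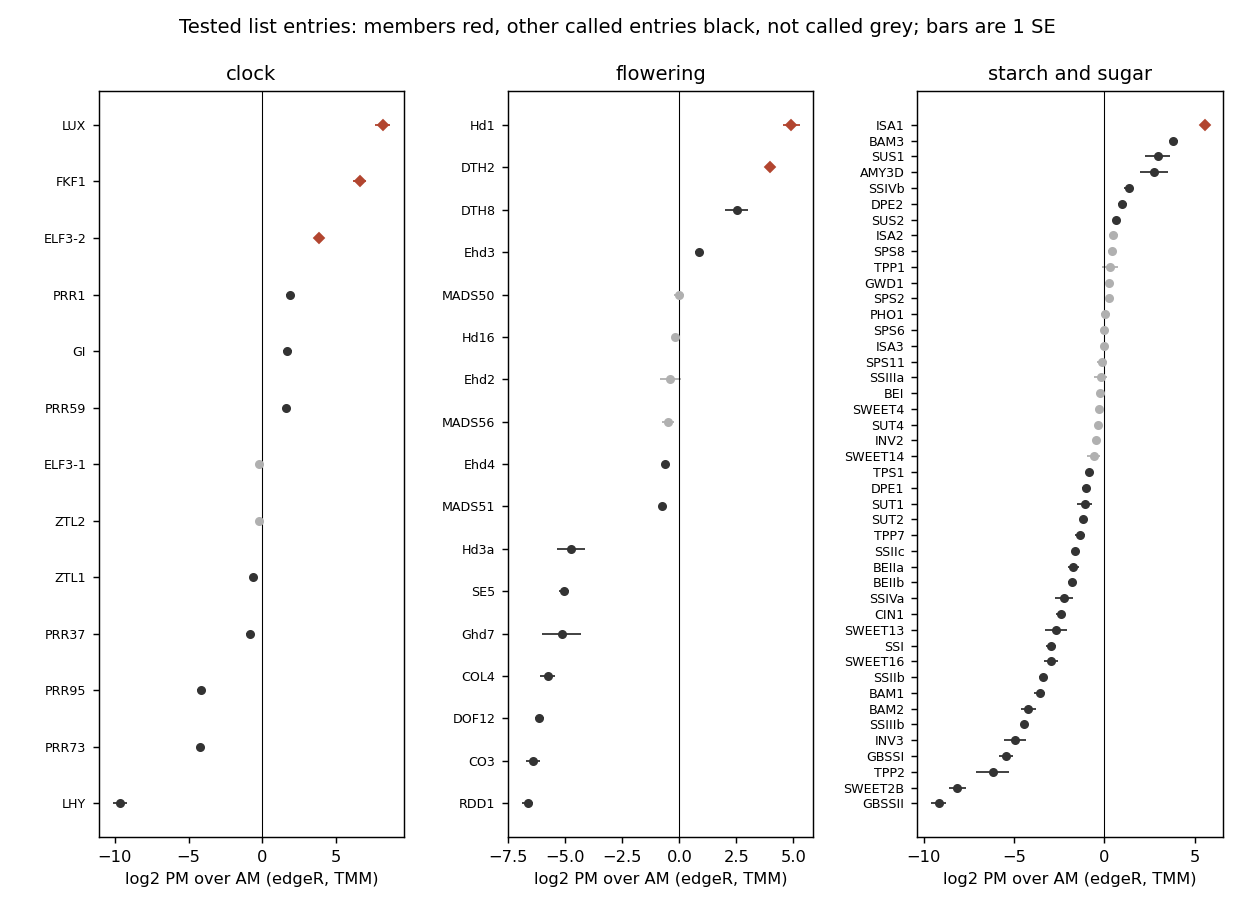
Fitted log2 difference of PM over AM with 1 SE for each tested entry of the clock, flowering and starch and sugar lists, with members as red diamonds, other called entries black and entries that were not called grey. Members, which the rule chose for such differences, head each list, with LUX at 8.17, Hd1 at 4.91 and ISA1 at 5.59. LHY at -9.65, RDD1 at -6.65 and GBSSII at -9.17 lie at the other ends.

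ISA1 (LOC_Os08g40930, chromosome 8) codes for isoamylase, which trims branches of growing starch molecules. It had 93.2, 95.6 and 74.8 CPM in PM replicates 1, 2 and 3, against 1.03, 0.825 and 1.19 CPM in AM replicates 1, 2 and 3. Its libraries within each group lay close together, and the log2 difference was 5.59 with an SE of 0.20. Both other isoamylase genes were no members. ISA1 was chosen by the rule for a large difference, so the genes are not compared in this. ISA2, a partner of ISA1, averaged 15.5 ± 2.2 CPM in PM and 5.96 ± 0.893 CPM in AM (SD, n = 3 each), a log2 difference of 0.51 with TMM (edgeR quasi-likelihood, Benjamini-Hochberg adjusted p = 0.0821) and of 1.38 with library totals alone (adjusted p = 0.000439). ISA3 averaged 44.0 ± 8.18 CPM in PM and 24.7 ± 6.98 CPM in AM (SD, n = 3 each), a log2 difference of 0.00 with TMM (edgeR, adjusted p = 0.989) and of 0.83 with library totals alone (adjusted p = 0.0131).

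Of the 55 starch and sugar genes listed 44 were tested, and ISA1 was the only member. The call was higher in PM for 7 and lower for 22, against 28.0% of all tested loci in each direction. With library totals alone it was 17 and 17. The genes called higher include ISA1, whose direction was fixed by the rule. The median log2 difference of the list was -0.71. BAM3 (LOC_Os10g41550), a beta-amylase, missed the rule narrowly with a ratio of 15.9. It had 105, 67.9 and 109 CPM in PM replicates 1, 2 and 3, against 4.18, 3.65 and 3.27 CPM in AM replicates 1, 2 and 3, a log2 difference of 3.81 (edgeR, adjusted p = 7.43e-06). SSIVb, a starch synthase, averaged 138 ± 32.5 CPM in PM and 30.6 ± 12.0 CPM in AM, a log2 difference of 1.36 (edgeR, adjusted p = 0.00217). The granule-bound starch synthase GBSSII averaged 1.67 ± 0.671 CPM in PM and 514 ± 207 CPM in AM, and the starch synthase SSIIIb 35.3 ± 5.46 CPM in PM and 422 ± 91.4 CPM in AM (SD, n = 3 each). Their log2 differences were -9.17 and -4.42 (edgeR, adjusted p = 1.52e-06 and 1.56e-06). Enzymes of starch metabolism lay at both ends of the scale.

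HSFC1B (LOC_Os01g53220, chromosome 1), a class C heat shock transcription factor, was recognised among the members after its values were seen. It had 29.3, 23.1 and 43.5 CPM in PM replicates 1, 2 and 3, against 0.359, 0.255 and 0.111 CPM in AM replicates 1, 2 and 3. The groups did not overlap, as the rule requires, and the log2 difference was 6.20 with an SE of 0.44. The other 8 lists, from light signalling, nitrogen and aquaporins to heat and drought, held no member among 112 tested genes. The rule held for only 0.827% of all tested loci, so nothing is read from this absence. HSFC1B itself was not an entry of the heat and drought list. Over all 11 lists 186 genes were tested and 6 were members, against 0.827% of all tested loci. The lists were chosen with earlier results of these data known, so nothing is read from this count. The call was higher for 32 (17.2%), these members included, and lower for 96, against 28.0% of all tested loci in each direction. The median log2 difference was -0.88. Library totals alone gave 58 higher and 64 lower.

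The other 163 members have no name in these lists and are known here by locus identifier only. The 2 most abundant were LOC_Os12g04204 and LOC_Os03g47610. LOC_Os12g04204 had 2916, 4211 and 2749 CPM in PM replicates 1, 2 and 3, against 144, 56.1 and 72.6 CPM in AM replicates 1, 2 and 3. It was at once the strongest member in AM, and its ratio of 19.1 lay in the lower range of the set. LOC_Os03g47610 had 3027, 3757 and 2894 CPM in PM replicates 1, 2 and 3, against 8.80, 3.21 and 5.48 CPM in AM replicates 1, 2 and 3. At almost the same PM level, its ratio was 325.

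Next in abundance came LOC_Os07g34570, LOC_Os01g50622 and LOC_Os05g28740. LOC_Os07g34570 averaged 1402 ± 237 CPM in PM and 2.79 ± 2.48 CPM in AM (SD, n = 3 each). LOC_Os01g50622 averaged 1295 ± 261 CPM in PM and 1.86 ± 0.968 CPM in AM (SD, n = 3 each), a ratio of 357. LOC_Os05g28740 varied more, with 1065 ± 426 CPM in PM and 19.0 ± 11.7 CPM in AM (SD, n = 3 each), and PM replicate 2 was its lowest PM library at 589 CPM.

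The largest ratio of all, 452, belonged to LOC_Os04g57880. It had 329, 359 and 387 CPM in PM replicates 1, 2 and 3, against 0.629, 0.210 and 0.360 CPM in AM replicates 1, 2 and 3, a log2 difference of 9.11 with an SE of 0.33. LOC_Os11g34130 followed the 2 abundant loci LOC_Os01g50622 and LOC_Os03g47610 with a ratio of 269, at 209 ± 14.1 CPM in PM and 0.463 ± 0.247 CPM in AM (SD, n = 3 each). At the bound of the rule, LOC_Os10g35290 and LOC_Os07g10300 were just inside with ratios of 16.03 and 16.09, and LOC_Os03g42770 and BAM3 just outside with 15.97 and 15.87. By level, LOC_Os02g48220 and LOC_Os04g29424 were just inside, both with a mean of 11.2 CPM, and LOC_Os12g36620 and LOC_Os12g34854 just outside with 9.37 and 8.63 CPM. A further 333 loci of at least 10 CPM had ratios from 8 to under 16, so the bound cuts through a continuous range.

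By the median SD given below, members were no steadier among the PM libraries than other loci. The highest PM value was at most 1.5 times the lowest in 120 of 170 members and more than 2 times in 15, with a median of 1.34 times. These counts were not taken over the other loci. The SD within PM of log2 TMM-normalised CPM had a median of 0.226 among members and of 0.20 among the 11522 other tested loci with a mean PM level of at least 10 CPM. The rule asks for a high lowest PM value, which limits this spread. Over all 170 members, 59 were highest in PM replicate 2 and lowest in PM replicate 3, and 40 were highest in PM replicate 3 and lowest in PM replicate 2. PM replicate 2 was highest in 48.8% of members and 47.1% of the other loci, and PM replicate 3 in 38.8 and 30.3%. PM replicate 3 was lowest in 41.8% of members and 49.9% of the other loci, and PM replicate 2 in 28.8 and 32.4%. Among the 15 variable members the order differed: 3 were highest in PM replicate 2 and lowest in PM replicate 3, and 11, LUX among them, ran the other way. The widest spread was at LOC_Os06g26234, with 55.9, 87.5 and 31.4 CPM in PM replicates 1, 2 and 3, against 0.584, 0.300 and 0.803 CPM in AM replicates 1, 2 and 3. Next was LOC_Os02g16909, with 55.2, 41.0 and 101 CPM in PM replicates 1, 2 and 3, against 0.988, 0.960 and 0.859 CPM in AM replicates 1, 2 and 3. These loci order PM replicates 2 and 3 in opposite ways. At the other end LOC_Os05g51150 had 292, 286 and 282 CPM in PM replicates 1, 2 and 3.

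With library sums as the scale, which the rule uses, the highest AM value of a member came from AM replicate 3 in 94 cases, from AM replicate 1 in 66 and from AM replicate 2 in 10. These were 55.3, 38.8 and 5.88% of members, against 48.4, 42.6 and 8.93% of the other tested loci with a mean PM level of at least 10 CPM. With TMM the shares from AM replicates 3, 1 and 2 were 50, 37.6 and 12.4% of members, against 35.2, 37.5 and 27.3% of the other loci, so the background of AM replicate 2 depends on the scaling. When AM replicate 3 did not enter the choice, 276 loci met the rule, and 170 of them (61.6%) also met the 16-fold bound in AM replicate 3 itself. Leaving out AM replicate 1 or 2 gave 192 and 173 loci, of which 88.5 and 98.3% met the bound in the library left out. Leaving out PM replicates 1, 2 or 3 gave 177, 194 and 199 loci, of which 96.0, 87.1 and 85.4% did so. A member cannot lose the ratio when a library is left out, so the members' presence among the loci chosen carries no information. With TMM in place of library totals, PM values fall relative to AM values and 77 members still met the rule, among them LUX, FKF1, ISA1 and HSFC1B but not ELF3-2, DTH2 or Hd1.

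The identifiers place the members on all 12 chromosomes. Chromosome 3 held 33 members (19.4%, against 13.2% of tested loci) and chromosome 1 held 29 (17.1%, against 14.1%). Chromosome 2 held 13 (7.65%, against 11.8%), and the other chromosomes held from 6 to 18 each. These shares were not tested.

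Some members were neighbours. In identifier order 5 pairs had no locus between them. All loci of these pairs were higher in PM by at least 4.22 on the log2 scale, a direction fixed by the rule for every member. The longest run was on chromosome 1, where LOC_Os01g65130 and LOC_Os01g65140 were followed by LOC_Os01g65169 and LOC_Os01g65200 with 1 locus in each gap. LOC_Os01g65130 had 22.6, 33.6 and 20.6 CPM in PM replicates 1, 2 and 3, against 1 count in AM replicate 1 and 0 counts in AM replicates 2 and 3. Over the summed libraries, 1757 PM counts and 1 AM count gave a ratio of 2926 with an exact 95% counting interval from 524 to 115625. LOC_Os01g65140 averaged 13.4 ± 4.69 CPM in PM and 0.0734 ± 0.0407 CPM in AM (SD, n = 3 each). LOC_Os01g65169 averaged 18.0 ± 2.76 CPM in PM (SD, n = 3), against 2 counts summed over the AM libraries, and LOC_Os01g65200 averaged 48.0 ± 3.49 CPM in PM and 1.33 ± 0.685 CPM in AM (SD, n = 3 each).

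The other pairs without a gap differed in how alike they were. On chromosome 11, LOC_Os11g30200 and LOC_Os11g30210 had similar levels, at 34.4 ± 5.9 and 40.7 ± 7.82 CPM in PM and 0.188 ± 0.0952 and 0.123 ± 0.0893 CPM in AM (SD, n = 3 each). On chromosome 12, LOC_Os12g41710 and LOC_Os12g41715 had 429 ± 130 and 259 ± 14.5 CPM in PM and 13.1 ± 6.68 and 3.68 ± 1.63 CPM in AM. On chromosome 6, LOC_Os06g36380 had 15.8 ± 5.19 CPM in PM and 0.135 ± 0.0797 CPM in AM, next to LOC_Os06g36390 with 179 ± 11.8 CPM in PM and 4.04 ± 0.753 CPM in AM. On chromosome 3, LOC_Os03g61150 had 76.6 ± 13.9 CPM in PM and 0.317 ± 0.205 CPM in AM, next to LOC_Os03g61160 with 19.5 ± 7.53 CPM in PM and 0.197 ± 0.0801 CPM in AM. The strand setting of the counting is not given, so reads of overlapping or antisense neighbours cannot be told apart.

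Loci beside members were called higher in PM more often than lower. Of 328 immediate neighbours that were no members 196 were tested, and 72 of these (36.7%) were higher in PM, against 28.0% of all tested loci, while 42 (21.4%) were lower, against 28.0% of all tested loci. More than 4-fold higher values were called for 28 of them (14.3%), against 9.29% of all tested loci. At 5 to 10 places from a member 29.5% of 876 tested loci were higher, 25.2% were lower and 8.56% were over 4-fold higher. The median log2 difference was 0.30 at the immediate neighbours and 0.08 further away. The neighbour of LUX, LOC_Os01g74030, had 23.2, 23.6 and 22.0 CPM in PM replicates 1, 2 and 3, against 0.988, 0.855 and 1.75 CPM in AM replicates 1, 2 and 3 (log2 difference 3.43, edgeR adjusted p = 1.35e-05). It was named after its values were seen. Its PM level did not follow the spread of LUX between PM replicates 2 and 3. These shares of neighbours were not tested against the background.

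**Figure D5:**
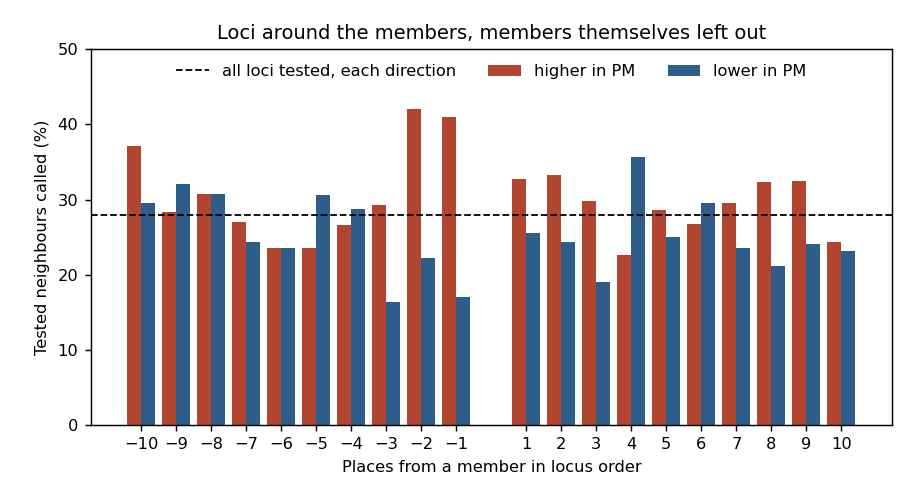
Percent of tested loci called higher (red) or lower (blue) in PM by edgeR at 1 to 10 places before or after a member in identifier order, members left out. The dashed line marks 28.0%, the share of all tested loci in each direction, and the red bars are tallest at 1 and 2 places before a member.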

How the data were processed

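RNA of 3 PM and 3 AM seedling libraries was sequenced after preparation from 2 µg of total RNA with a directional kit, per the labels' protocols. The authors deposited raw counts per locus. Trimmomatic 0.33, STAR and HTSeq 0.6.1 are the tools that the submitters' processing notes name. Not given in the sources used here are the STAR version, the build, the annotation and the strand setting. Coordinates are therefore left out, and loci with near-identical copies can lose or split reads. Summary lines that name no gene (5 per file) stayed out of totals. On records of all kinds, those aligned to more than 1 place made up 39.1 to 47.9% in PM and 45.1 to 56.1% in AM, those on no feature 4.36 to 6.26% in PM and 2.92 to 4.25% in AM, and ambiguous ones 0.131 to 0.159% in PM and 0.112 to 0.171% in AM.

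CPM is the count over the library's gene counts times 1000000. The test of PM against AM was quasi-likelihood in edgeR 4.0.16 (R 4.3.3, TMM, filterByExpr with minimum count 10, 20548 loci left, Benjamini-Hochberg at 0.05). The script was tested on simulated data. Fold changes are PM over AM, and an SE is the coefficient's size over the root of its F. Pairs of replicates all differed beyond sampling noise, with 15.2 to 104 as chi-square per degree of freedom, and none were merged. Alternatives were RLE, library totals alone, no filter, a replicate block, DESeq2 1.42.0, limma-voom (limma 3.58.1), thinning, other bounds of the rule and leaving out each library.

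Members and lists were chosen with earlier results of these data known. Named are members in the lists, loci at the extremes of level, ratio and spread, those beside the bounds, adjacent members, and up to 4 called entries of the clock, flowering and starch lists that are no members (the 2 smallest p in each direction). The isoamylase, ELF3 and ZTL relatives, LOC_Os05g28740, and the run beside LOC_Os01g65140 were named after their values were seen. Of 249 list entries 246 were among the loci. RefSeq (assembly ASM3414082v1) placed 166 symbols on the chromosome of their identifier and 2 on another, which were dropped, and 81 had no entry. Of 155 neighbouring matched pairs 1 was in reversed order. The names ELF3-2, FKF1 and DTH2 rest on the lists alone.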

Additional observations from a re-analysis of the deposited data

How the results depend on the processing

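The number of members depends on the rule and the scaling. It was 77 with TMM-normalised CPM, 76 with DESeq2 size factors, 503 at 8 times, 62 at 32 times and 97 with 1 CPM added; 192, 140 and 174 loci met it with a mean of at least 5 CPM, at least 20 CPM or thinning. Leaving out each library gave 173 to 276 loci, and 276 without AM replicate 3. Loci called higher in PM numbered 5748 by edgeR with TMM and 11200 with library totals alone, and those called lower 5745 and 2764. Leaving out each library gave 4847 to 6061 higher and 4821 to 5800 lower. RLE, no filter, DESeq2 and limma-voom gave 5678 to 5919 higher and 5747 to 6080 lower. The share of counts on the members averaged 2.35% in PM and 0.0767% in AM with TMM, and 2.82% in PM and 0.0491% in AM without LOC_Os12g04204. Refits of the 33 members named by symbol or identifier gave log2 differences of 3.58 to 12.37. The 12.37 belongs to LOC_Os01g65130 without AM replicate 1, the library with its only AM count. The direction of these refits was fixed by the rule and shows no stability. ZTL1, ELF3-1 and ZTL2 changed sign with library totals alone, to 0.24, 0.63 and 0.62. Samples of the same number did not deviate together (r = -0.06, -0.27 and 0.10), so numbers were not taken as pairs. Across different numbers r ran from -0.41 (AM replicate 1 with PM replicate 3) to 0.39 (AM replicate 1 with PM replicate 2). The replicate block gave 5077 loci higher and 5060 lower. The search for motifs in promoters was not run. Depth limits weak members: 3 counts equal up to 0.231 CPM in PM and 0.135 CPM in AM. The cause of these shifts was not tested.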

Other observations

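Without AM replicate 3 in the choice, 2 loci met the rule and then had AM replicate 3 values above their lowest PM value. All loci named here were picked after their values were seen. LOC_Os08g26710 had 46.6, 36 and 46.5 CPM in PM replicates 1, 2 and 3, against 1.75, 1.46 and 60.7 CPM in AM replicates 1, 2 and 3. LOC_Os08g10310 had 106, 21.2 and 124 CPM in PM replicates 1, 2 and 3, against 1.21, 0.495 and 21.8 CPM in AM replicates 1, 2 and 3. Without PM replicate 3 in the choice, 2 other loci met the rule and then had PM replicate 3 values below their highest AM value. LOC_Os01g72370 had 120, 54.7 and 0.504 CPM in PM replicates 1, 2 and 3, against 0.269, 0.690 and 0 CPM in AM replicates 1, 2 and 3. LOC_Os11g15624 had 29.5, 21.5 and 0.264 CPM in PM replicates 1, 2 and 3, against 0.180, 0.630 and 0 CPM in AM replicates 1, 2 and 3. A count of 0 in AM replicate 3 allows up to 0.0831 CPM. With any of the other 4 libraries left out, no locus chosen showed such an overlap.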
